A study of Mus musculus with 6 samples.

Results

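The genes described here were 10 genes that act in fiber cell denucleation in the lens, chosen by name. Of these, 5 encode nucleases that cut DNA (Dnase2b, Dnase2a, Dnase1l1, Endog and Trex1) and 5 encode proteins of the nuclear lamina or of the inner nuclear membrane that holds it (Lmna, Lmnb1, Lmnb2, Emd and Lbr). By their symbols, 9 of the 10 were found among the 13931 genes of the deposited table, and Trex1 was not analysed here. RNA-seq measured their transcripts in whole lenses of newborn (P0) mice of a mixed C57BL/6J and FVB background, in 3 Control and 3 Celf1cKO libraries, each made from 2 pooled lenses. Celf1 encodes an RNA-binding protein that controls the decay, splicing and translation of its target mRNAs. The Celf1cKO mice carried a germline knockout allele (Celf1lacZKI), a Celf1flox allele in which loxP sites flank exon 5, and the Pax6GFPCre transgene, which drives Cre recombinase in the cells that form the lens. The labels name the genotype of the Control mice as Celf1lacZKI/+, so that they also carried the germline knockout allele, beside a normal one. In the methods of the study, controls are Celf1flox animals that lack Cre where nothing else is noted, and which of these genotypes the Control lenses had was not settled.

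Lens fiber cells form the bulk of the lens and, as they mature in its centre, they destroy their nuclei and other organelles so that light passes without scatter. The DNA is cut mainly by DNase IIβ, the product of Dnase2b, an acid nuclease of lysosomes that the lens expresses far more than most tissues. Before the DNA can be reached the nuclear envelope has to open, and its lamina is a meshwork of A-type lamins (Lmna) and B-type lamins (Lmnb1 and Lmnb2) that comes apart when cyclin-dependent kinases phosphorylate the lamins.

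Between 40694454 and 44387151 reads per library were counted on genes, and values are log2 CPM (reads on a gene scaled to the size of the library) as the authors normalized and deposited them. The values of the libraries of a group are given in the order of their numbers, 1, 2 and 3. Celf1 itself was reduced, with 9.95, 9.94 and 9.34 log2 CPM in the Control libraries and 8.93, 7.66 and 7.83 in the Celf1cKO libraries (log2 fold-change -1.60, limma with Benjamini-Hochberg adjustment, adjusted p = 0.0269). Of the fits that left out 1 library, Celf1 was called in 1 of 6, that without Celf1cKO library 1, its adjusted p reached 0.108 and its log2 fold-change ran from -1.99 to -1.36. With a term for Y-linked transcripts the log2 fold-change was -1.20 (limma adjusted p = 0.20). Genes that mark lens fiber cells summed to between 113438 and 136676 CPM in Control and between 93619 and 100025 CPM in Celf1cKO libraries, against at most 1049 CPM for markers of lens epithelium, 118 CPM for vascular endothelium, 42.1 CPM for retina and pigment epithelium and 10.9 CPM for macrophages and leukocytes. Markers of mesenchyme, erythroid cells and cornea or skin epithelium summed to at most 6.86, 1.35 and 0.330 CPM. The endothelial sum was 118, 95.3 and 104 CPM in Control libraries 1 to 3 and 114, 22.8 and 54.7 CPM in Celf1cKO libraries 1 to 3, so Celf1cKO library 2, and less so library 3, stood apart from the others. The retinal sum was highest in the libraries numbered 3 of both groups, at 42.1 and 37.6 CPM. Y-linked genes such as Eif2s3y were expressed at 5.67 and 5.80 log2 CPM in Control libraries 1 and 2 and were at -4.41 log2 CPM in Control library 3 and between -4.41 and -3.42 log2 CPM in the Celf1cKO libraries. The X-linked gene Xist was at 2.31 and -1.44 log2 CPM in Control libraries 1 and 2 and at 8.22 to 9.88 log2 CPM in the other 4. The labels give no sex. Since 2 of 3 Control and 0 of 3 Celf1cKO libraries held Y-linked transcripts, results are also given from a model with a term for them. In that model the groups are compared through Control library 3 alone against the 3 Celf1cKO libraries. Sex and the use of 1 Control library cannot be told apart there, so no conclusion about sex is drawn from a lost call. Without the term, 1030 of all genes were called.

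A gene was called elevated or reduced in Celf1cKO lenses when its adjusted p-value from limma was under 0.05, it differed by more than 0.58 log2 units and its average was above 1 log2 CPM. Of the 9 members, 2 were called, Dnase2b as reduced and Lmna as elevated, and 7 were not. Among all 13931 genes 7.39% were called. Of the 6 members with an average above 1 log2 CPM, 1 was elevated and 1 was reduced, while of all 10640 such genes 9.68% were called, 6.24% as elevated and 3.44% as reduced. The 3 Control and 3 Celf1cKO values did not overlap for 5 of the 9 members (Dnase2b, Endog, Lmna, Lmnb2 and Emd), against 36.5% of all genes. The median log2 fold-change was -0.07 over the 9 members and -0.04 over all genes. An exact permutation test of 3 libraries against 3 cannot give a two-sided p below 0.1, which every member without overlap had.

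**Figure D1:**
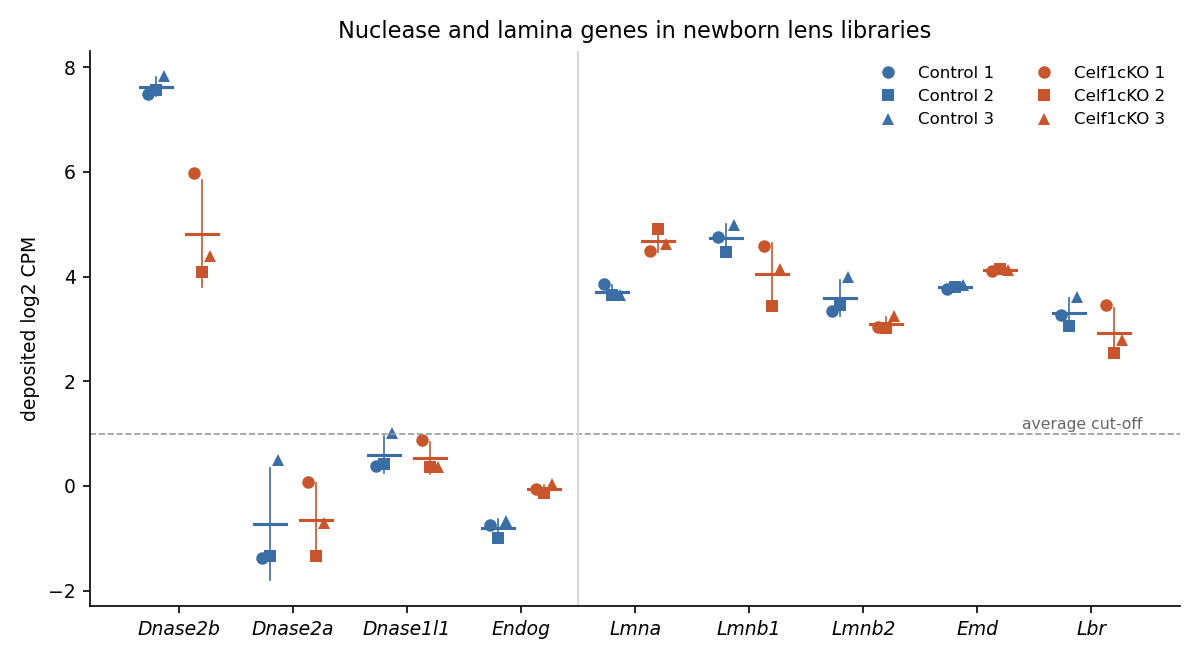
Deposited log2 CPM of each nuclease gene (left of the grey line) and lamina gene (right) in each library, with circles, squares and triangles for libraries 1, 2 and 3, Control in blue and Celf1cKO in orange. Horizontal bars are group means, vertical lines are 1 SD (n = 3) and the dashed line is the average of 1 log2 CPM needed for a call; Dnase2b drops from 7.63 to 4.82 on average and Lmna goes from 3.71 to 4.67.

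Dnase2b (ENSMUSG00000028185, chr3:146580985-146615596, - strand, GRCm38) had the largest difference among the members. Its level was 7.49, 7.57 and 7.83 log2 CPM in the Control libraries and 5.99, 4.09 and 4.39 in the Celf1cKO libraries. The lowest Control library was above the highest Celf1cKO library, and Celf1cKO library 1 had more Dnase2b than the other two. The log2 fold-change was -2.81 (standard error 0.445, 95% interval -3.85 to -1.77, n = 3 per group), and limma with Benjamini-Hochberg adjustment gave an adjusted p of 0.0141. On the linear scale this is a level 7.02 times higher in Control lenses, with 6905 to 8982 reads per Control library and 826 to 2722 per Celf1cKO library. The call was lost without Control library 2 (limma adjusted p = 0.0634), Control library 3 (0.0542) or Celf1cKO library 3 (0.0737), while the log2 fold-change stayed between -3.39 and -2.45 over the 6 omissions. Without Control library 2, or without Celf1cKO library 3, limma called 1 gene in the whole table. With a term for Y-linked transcripts in the model, the log2 fold-change was -3.01 and the limma adjusted p was 0.0853.

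The summed level of the fiber cell markers was also lower in every Celf1cKO library than in every Control library, and 3 of the 9 fiber markers measured, Bfsp1, Gja3 and Birc7, were called reduced. Their log2 fold-changes were -1.47, -1.13 and -1.15, while the median over the 9 was -0.32. In RNA from whole lenses, fewer cells of a type and less RNA per cell cannot be told apart, and the part of the fiber markers in the Dnase2b result was not tested.

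The promoter of Dnase2b is shown because heat shock factor Hsf4, which binds paired GAA units and is known to act on Dnase2b in the lens, is itself in these data. The RefSeq window, from 250 bases before to 50 after the start of transcription, is chr3:146615549-146615848 on the - strand of GRCm38.p6, and capitals mark the pair GAANNTTC, the single match to a heat shock element pair (GAANNTTC or TTCNNGAA, each its own reverse complement).
Dnase2b promoter: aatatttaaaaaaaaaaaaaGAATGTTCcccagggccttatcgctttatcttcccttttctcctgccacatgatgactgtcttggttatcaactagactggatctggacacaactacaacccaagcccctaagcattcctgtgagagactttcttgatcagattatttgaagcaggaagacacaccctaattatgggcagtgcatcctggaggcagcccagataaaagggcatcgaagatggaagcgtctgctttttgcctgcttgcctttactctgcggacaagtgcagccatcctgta
The match begins 230 bases before the start. Of 32851 RefSeq promoter windows of this length 15.1% hold such a pair, so the match is a description of the letters and not a site. Promoter windows were given for 9 of the 10 members, 13 windows in all, and only this one and the second start of Lmna hold the pair. No window of a member holds TATAAA on either strand, which 13.6% of all windows do, and the Dnase2b window also lacks GGGCGG on either strand, which 35.7% hold. Hsf4 transcripts were at 7.82, 7.98 and 7.87 log2 CPM in the Control libraries and 7.46, 7.54 and 7.44 in the Celf1cKO libraries. The groups did not overlap and the limma adjusted p was 0.0210, but the log2 fold-change of -0.41 was under the fold-change threshold.

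The other nuclease members were measured at low levels, below the average needed for a call. Dnase2a (ENSMUSG00000003812, chr8:84908560-84922915, + strand) encodes the acid DNase of lysosomes in most tissues. Its level was -1.37, -1.33 and 0.50 log2 CPM in the Control libraries and 0.07, -1.33 and -0.70 in the Celf1cKO libraries, from 13 to 54 reads per library. The groups overlapped, with a log2 fold-change of 0.08 (95% interval -1.36 to 1.51, limma adjusted p = 0.947), and its sign turned without Control library 1 or 2 or Celf1cKO library 1 (-0.24, -0.22 and -0.28). The exons of Dnase2a share 1616 bases with the antisense gene Mast1, and whether the counting used the strand is not given in the sources used here.

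Dnase1l1 (ENSMUSG00000019088, chrX:74273217-74282337, - strand), a membrane-anchored relative of DNase I, was at 0.38, 0.42 and 1.002 log2 CPM in the Control libraries and 0.88, 0.36 and 0.36 in the Celf1cKO libraries. The groups overlapped, with 48 to 77 reads in Control and 60 to 77 in Celf1cKO libraries, and Control library 3, which lacked Y-linked transcripts, was the highest. They differed by a log2 fold-change of -0.07 (95% interval -0.76 to 0.63, limma adjusted p = 0.904), which was 0.13 without Control library 3.

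Endog (ENSMUSG00000015337, chr2:30171493-30174069, + strand) encodes endonuclease G of mitochondria, which can move to the nucleus when cells die. Its level was -0.75, -0.99 and -0.66 log2 CPM in the Control libraries and -0.07, -0.13 and 0.03 in the Celf1cKO libraries. Every Celf1cKO library was above every Control library, with 39 to 48 reads against 17 to 23. Endog was not called, with a log2 fold-change of 0.74 (standard error 0.281, 95% interval 0.09 to 1.40) and a limma adjusted p of 0.127. Its exons share 379 bases with the antisense gene Spout1.

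Compared per kilobase of the principal transcript, Dnase2b made up nearly all of the RNA of the 4 nuclease members in Control lenses. It had 74.3 ± 9.42 CPM per kilobase (SD, n = 3) there and 12.6 ± 9.58 in Celf1cKO lenses. Nucleases outside the members are not in this comparison. Dnase1l1 had 0.923 ± 0.243 and 0.875 ± 0.198 CPM per kilobase, Endog 0.499 ± 0.0615 and 0.861 ± 0.0522, and Dnase2a 0.401 ± 0.346 and 0.373 ± 0.193, in Control and Celf1cKO lenses. In the Control libraries these 3 lay at least an order of magnitude below Dnase2b. The share of Dnase2b in the summed CPM per kilobase of the 4 nucleases was 97.8%, 98.0% and 97.1% in the Control libraries and 90.3%, 78.1% and 79.5% in the Celf1cKO libraries. It remained the most abundant of the 4 in every Celf1cKO library.

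Among other genes for nucleases and DNA repair nucleases, including the caspase-activated DNase Dffb and its inhibitor Dffa, 13 of 16 listed genes were in the table and 0 were called in either direction by limma or by limma voom on the reads, and 4 had an unadjusted p under 0.05, which 29.9% of all genes had. Their median log2 fold-change was 0.04. Dffa, whose call depended on the model, had 2.94, 3.14 and 2.83 log2 CPM in the Control libraries and 3.20, 4.03 and 3.997 in the Celf1cKO libraries. The groups did not overlap, the log2 fold-change was 0.78 and the limma adjusted p was 0.0780, which became 0.0498 with the replicate number as a block, so that Dffa was then called elevated.

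Lmna (ENSMUSG00000028063, chr3:88480147-88509956, - strand), which encodes lamins A and C, was the lamina member that was called elevated. Its level was 3.85, 3.64 and 3.64 log2 CPM in the Control libraries and 4.50, 4.90 and 4.62 in the Celf1cKO libraries. All Celf1cKO libraries were above all Control libraries, and library 2, which had the least Dnase2b, had the most Lmna. The log2 fold-change was 0.96 (standard error 0.140, 95% interval 0.64 to 1.29), a level 1.95 times higher, and the limma adjusted p was 0.0120. Reads on Lmna numbered 462 to 551 in the Control and 968 to 1449 in the Celf1cKO libraries. The call was lost without Control library 2 (limma adjusted p = 0.0592) or Celf1cKO library 3 (0.0736), while the log2 fold-change stayed between 0.85 and 1.05 over the 6 omissions. With a term for Y-linked transcripts it was 1.03 with a limma adjusted p of 0.0716.

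The promoter window at the first RefSeq start of Lmna, chr3:88503303-88503602 on the - strand of GRCm38.p6, is shown beside that of Dnase2b because these were the members that were called. Capitals mark the reverse complement of a GC box (GGGCGG), which begins 52 bases before the start.
Lmna promoter: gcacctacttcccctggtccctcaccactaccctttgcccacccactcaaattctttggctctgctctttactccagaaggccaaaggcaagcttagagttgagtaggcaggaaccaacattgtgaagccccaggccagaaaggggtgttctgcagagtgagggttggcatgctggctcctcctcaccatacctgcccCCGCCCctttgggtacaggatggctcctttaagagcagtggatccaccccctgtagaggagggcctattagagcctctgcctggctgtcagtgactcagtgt
This window holds no heat shock element pair, and 56.3% of its bases are G or C against 45.0% in the Dnase2b window. The 2 windows shown lie on the same chromosome and have no match in common among the motifs searched. The window at the second start of Lmna, not shown, does hold a heat shock element pair, as the Dnase2b window does.

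The B-type lamins, which are anchored in the inner nuclear membrane by a lipid tail, had lower means in Celf1cKO lenses and were not called. Lmnb1 (ENSMUSG00000024590) was at 4.76, 4.47 and 4.99 log2 CPM in the Control libraries and 4.59, 3.44 and 4.14 in the Celf1cKO libraries. Celf1cKO library 1 lay within the Control range and library 2 was the lowest. The log2 fold-change was -0.68 (standard error 0.285, 95% interval -1.35 to -0.02, limma adjusted p = 0.157), and without Celf1cKO library 1 it was -0.95 with a limma adjusted p of 0.0360.

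Lmnb2 (ENSMUSG00000062075, chr10:80901203-80918245, - strand) was at 3.35, 3.45 and 3.99 log2 CPM in the Control libraries and 3.03, 3.02 and 3.24 in the Celf1cKO libraries. The groups did not overlap, by a margin of about the spread within the Celf1cKO group. Lmnb2 was not called, with a log2 fold-change of -0.50 (95% interval -0.95 to -0.04, limma adjusted p = 0.137), and with a term for Y-linked transcripts it was -0.89 with a limma adjusted p of 0.0723.

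Lmna made up more of the lamin RNA in every Celf1cKO library than in every Control library. Per kilobase of the principal transcript, it took 26.6%, 26.4% and 19.9% of the summed lamins in the Control libraries and 39.7%, 60.4% and 46.5% in the Celf1cKO libraries. The share of Lmnb1 was 54.7% ± 2.31 (SD, n = 3) in Control and 36.0% ± 11.3 in Celf1cKO lenses, and that of Lmnb2 was 21.01% ± 3.14 and 15.1% ± 1.64. By the length of all exons the share of Lmna was also higher in Celf1cKO lenses, but Lmnb1 (48.1%) then exceeded Lmna (34.1%) in Celf1cKO library 3, and Lmna was the largest only in library 2, with 48.0% against 34.2% for Lmnb1. By the principal transcript, the sum of the lamins was 17.3 ± 2.43 and 16.8 ± 1.17 CPM per kilobase, a difference smaller than the spread between libraries. The sum by the length of all exons was 14.2 ± 2.21 in Control and 12.3 ± 1.61 CPM per kilobase in Celf1cKO lenses. The log2 CPM of Lmna minus that of Lmnb1 in the same library was -0.91, -0.83 and -1.34 in the Control libraries and -0.09, 1.46 and 0.48 in the Celf1cKO libraries.

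**Figure D2:**
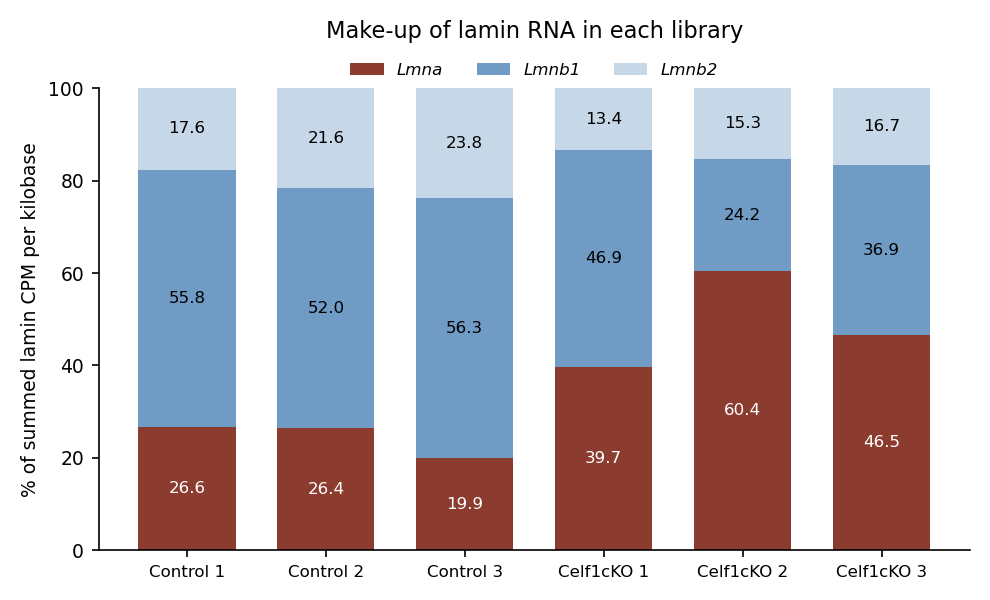
Stacked bars give the share of Lmna (bottom), Lmnb1 (middle) and Lmnb2 (top) in the summed lamin CPM per kilobase of the principal transcript in each library, in percent. Lmnb1 is the largest segment in all 3 Control libraries and in Celf1cKO library 1, and Lmna is the largest in Celf1cKO libraries 2 and 3 by this length, and in library 2 alone by the length of all exons.

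Emd (ENSMUSG00000001964, chrX:74254687-74261548, + strand) encodes emerin, an inner nuclear membrane protein that binds lamins and chromatin. It was at 3.77, 3.79 and 3.84 log2 CPM in the Control libraries and 4.10, 4.14 and 4.13 in the Celf1cKO libraries. The spread within each group was the smallest of the members, and the groups did not overlap. The log2 fold-change was 0.33 (standard error 0.103, 95% interval 0.09 to 0.57, limma adjusted p = 0.0813), so Emd passed neither the adjusted p nor the fold-change threshold. Emd is X-linked, and Control library 3, the only Control library without Y-linked transcripts, was at 3.84 log2 CPM, below all Celf1cKO libraries. With a term for Y-linked transcripts the log2 fold-change of Emd was 0.29 (limma adjusted p = 0.264), and the part of sex in it was not tested.

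Lbr (ENSMUSG00000004880, chr1:181815335-181843046, - strand) encodes the lamin B receptor, which tethers chromatin and B-type lamins to the inner nuclear membrane. It was at 3.26, 3.05 and 3.61 log2 CPM in the Control libraries and 3.46, 2.53 and 2.80 in the Celf1cKO libraries. Celf1cKO library 1 lay among the Control libraries and the other two were below them. Lbr was not called, with a log2 fold-change of -0.38 (95% interval -0.999 to 0.25, limma adjusted p = 0.377).

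The lower values of Lmnb1 and Lbr lay in Celf1cKO libraries 2 and 3, in which endothelial markers and some of the lens epithelial markers were low as well. Pecam1 and Cdh5, which encode adhesion proteins of endothelial cells, were 2.69 and 3.38 log2 units below the Control mean in library 2 and 1.21 and 1.07 below it in library 3. The epithelial cadherin Cdh1 was 2.66 and 1.23 log2 units below the Control mean in these libraries and 0.14 below it in library 1. Over all 7 lens epithelium markers measured, the summed level was 879 to 1049 CPM in Control and 627 to 889 CPM in Celf1cKO libraries, and 2 of the 7, Foxe3 and Pdgfra, were called reduced. The other 5 were not called, with log2 fold-changes of -1.34 for Cdh1 (limma adjusted p = 0.148), -1.13 for Npnt (0.113), -0.95 for Gja1 (0.346), 0.02 for Cdh2 (0.934) and 0.12 for Wnt7a (0.749). Wnt7a was highest in Celf1cKO library 2, Cdh2 stayed within the Control range in both libraries, and Gja1 was above the Control mean in library 3. The part of these cell types in the lamina values was not tested. Without Celf1cKO library 2 the log2 fold-change of Dnase2b was -2.45 (limma adjusted p = 0.0304) and that of Lmna was 0.85 (limma adjusted p = 0.0339), and both were called. Without Celf1cKO library 3 neither was called, with log2 fold-changes of -2.59 and 0.99 (limma adjusted p = 0.0737 and 0.0736).

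**Figure D3:**
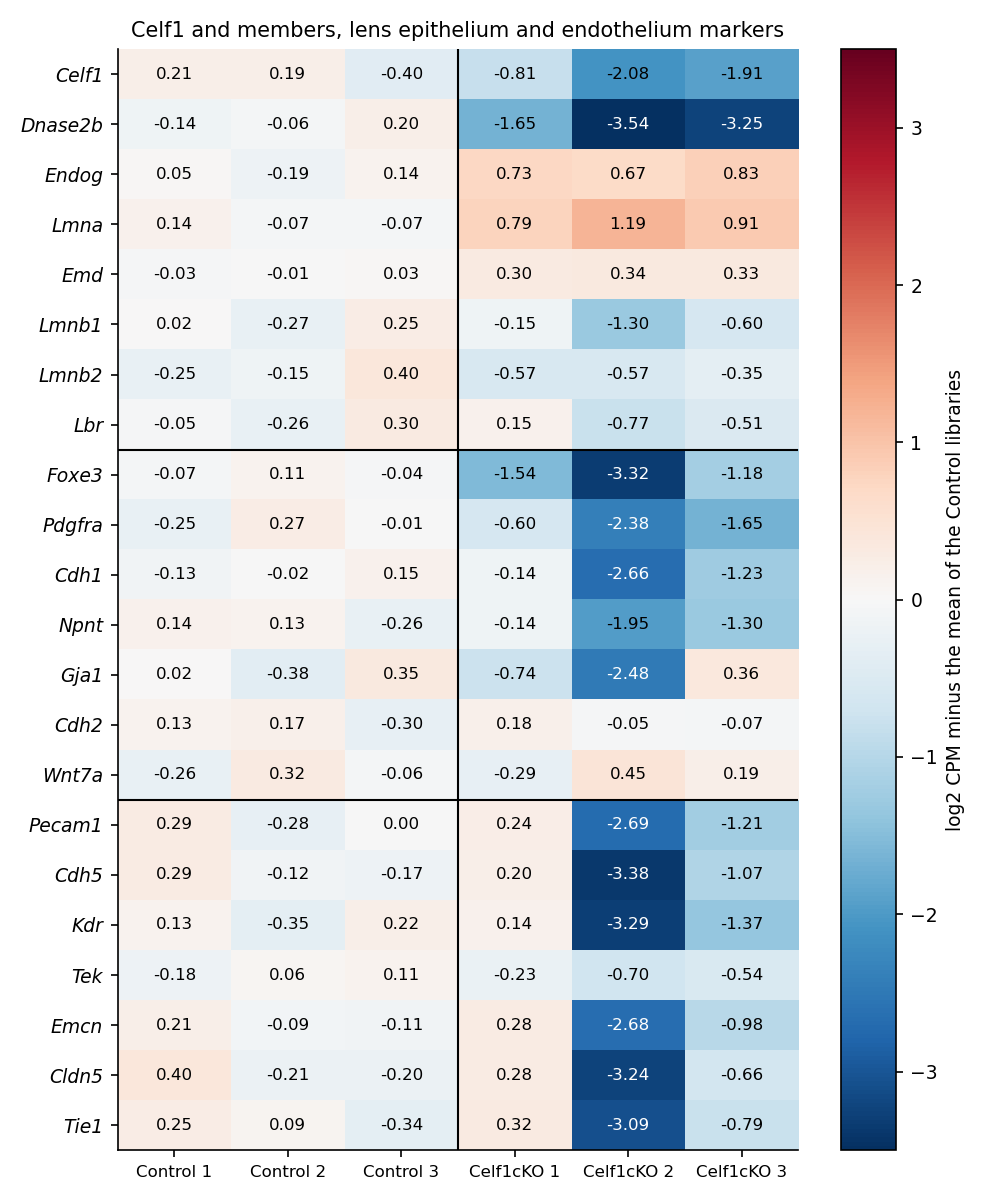
Each cell gives the log2 CPM of a gene in a library minus the mean of the 3 Control libraries, from blue (lower) to red (higher), for Celf1 and members (top block), all 7 lens epithelium markers (middle) and all 7 endothelium markers (bottom). Celf1cKO library 2 has the lowest Dnase2b, Lmnb1 and Lbr, the highest Lmna, and the lowest value of every marker but Cdh2 and Wnt7a, and the row of Emd varies least among the members shown.

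Celf1 protein is known to bind GU-rich elements in the untranslated 3′ end of mRNAs, so the 3′ ends of the members were searched for the core TGTTTGT and for an element of 11 bases made of 2 such cores that share 3 bases, on the sense strand of the GENCODE M21 principal transcript. The 11-base element is in the 3′ end of 3.86% of the 13002 genes of the table with such a transcript, and in none of the 10 members. The core is in 27.7% of these genes and, among the members, in Emd and Lbr alone. A repeat of GT, TGTGTGT, is in 31.5% of the genes and, among the members, in Emd, Lbr and Lmnb1. The stretches of Emd and Lbr are shown, with the core or the repeat in capitals, because these are the members with both.
Emd, chrX:74257417-74257443, + strand: ggggctttttTGTGTGTtctagttggg
Emd, chrX:74257651-74257677, + strand: catgcatgccTGTTTGTtgtcaccttt
Lbr, chr1:181816120-181816146, - strand: aatttgcaggTGTGTGTttgcctttat
Lbr, chr1:181815835-181815861, - strand: gtgtataagcTGTTTGTagccttcagt
They begin, from the first base in capitals, 90 and 324 bases after the stop codon of Emd and 722 and 1007 bases after that of Lbr. Dnase2b and Lmna, the members that were called, hold none of these exact letters in 3′ ends of 1289 and 926 bases. Other GU-rich letters and other parts of the transcripts were not searched, so a lack of matches does not show a lack of binding. The paper cites earlier work in the lens in which Dnase2b RNA was a direct target of Celf1. The matches describe the letters in these windows only, and binding was not measured here.

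Across the 9 members, levels per kilobase in Control lenses ran from Dnase2b (74.3 CPM per kilobase) to Lmnb1 (9.48 ± 1.68), Emd (8.71 ± 0.197), Lmna (4.15 ± 0.356), Lmnb2 (3.65 ± 0.925), Lbr (2.84 ± 0.571) and then the other nucleases. Lmnb1 and Emd, Lmna and Lmnb2, and Lmnb2 and Lbr were neighbours in this order that differed by less than their SDs together. With the length of all exons, Lmnb2 (2.87 CPM per kilobase) came before Lmna (2.24) in Control lenses. In Celf1cKO lenses Emd (10.9 ± 0.163) and Lmna (8.13 ± 1.19) came before Lmnb1 (6.14 ± 2.32), Lmnb2 (2.54 ± 0.225) and Lbr (2.24 ± 0.778). The level of Dnase2b there, 12.6 ± 9.58 CPM per kilobase, did not differ from that of Emd beyond its spread. Lmna and Lmnb1, and Lmnb2 and Lbr, differed there by less than their SDs together, Lmnb1 (8.44) was above Lmna (7.14) in Celf1cKO library 1, and by the length of all exons Lmnb1 (5.89 CPM per kilobase) came before Lmna (4.39).

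The remaining genes of the nuclear envelope and of lamin processing were measured for 26 of 26 listed genes. Of these, 2 were called elevated and 0 reduced, against 6.24% and 3.44% of all genes with an average above 1 log2 CPM. The median log2 fold-change of the 26 was 0.02, and for 10 of them the groups did not overlap, against 36.5% of all genes. Tmem43, an inner nuclear membrane protein that binds emerin and lamins, was at 4.53, 4.73 and 4.47 log2 CPM in the Control libraries and 5.02, 5.69 and 5.43 in the Celf1cKO libraries (log2 fold-change 0.80, limma adjusted p = 0.0309). Icmt, the methyltransferase that finishes the lipid-modified tail of prelamin A and B-type lamins, was at 4.78, 4.94 and 4.72 log2 CPM in the Control libraries and 5.11, 5.63 and 5.56 in the Celf1cKO libraries (log2 fold-change 0.62, limma adjusted p = 0.0425). In both genes Celf1cKO library 1 was the lowest of its group and still above every Control library, and in both the call was made in 1 of the 6 fits that left out 1 library, that without Celf1cKO library 1, with limma adjusted p up to 0.122 and 0.159 in the others. Their log2 fold-changes over these fits were 0.64 to 0.98 and 0.52 to 0.78, and with quantile normalization that of Icmt was 0.55, under the fold-change threshold.

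Of 31 listed genes for kinases, phosphatases and other proteins that act on lamins or on the opening and resealing of the envelope, 31 were in the table. Limma called 1 elevated and 1 reduced, against 6.24% and 3.44% of all genes with an average above 1 log2 CPM. Cdkn1a, which encodes the inhibitor p21 of cyclin-dependent kinases, was at -0.36, -0.65 and -0.72 log2 CPM in the Control libraries and 3.80, 6.04 and 4.70 in the Celf1cKO libraries. It rose by a log2 fold-change of 5.42 (limma adjusted p = 0.00888), from 22 to 28 reads to 596 to 3198 reads per library, and its highest library was again Celf1cKO library 2. The call was lost without Control library 2 (limma adjusted p = 0.0512) or Celf1cKO library 3 (0.0607), and with a term for Y-linked transcripts (0.0621), with log2 fold-changes of 5.39, 5.50 and 5.57. Lpin1, a phosphatidate phosphatase of the lipin family, whose activity limits nuclear membrane growth, was at 5.73, 6.11 and 6.10 log2 CPM in the Control libraries and 5.40, 5.28 and 5.20 in the Celf1cKO libraries (log2 fold-change -0.69, limma adjusted p = 0.0195). It was called in 2 of the 6 fits that left out 1 library, those without Control library 1 or Celf1cKO library 1, with limma adjusted p of 0.0580 to 0.0969 in the others and log2 fold-changes of -0.81 to -0.62 over all 6. With total-count scaling it was -0.46, under the fold-change threshold.

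Cdkn1b, which encodes the related inhibitor p27, was at 5.20, 5.22 and 4.87 log2 CPM in the Control libraries and 5.16, 4.80 and 4.71 in the Celf1cKO libraries. The groups overlapped and Cdkn1b was not called (log2 fold-change -0.20, 95% interval -0.57 to 0.16, limma adjusted p = 0.408). With total-count scaling, which raises the median of all expressed genes by 0.23 log2 units, its log2 fold-change was 0.02, and with a term for Y-linked transcripts it was also 0.02, so its direction depended on the model. The protein was not measured here.

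Among 17 genes of 18 listed that have been tied to fiber cell denucleation, 3 were called reduced and 0 elevated, and the median log2 fold-change was -0.17. Of all genes with an average above 1 log2 CPM, 3.44% were called reduced and 6.24% elevated. Foxe3, a forkhead factor of the lens epithelium, was at 4.88, 5.06 and 4.91 log2 CPM in the Control libraries and 3.41, 1.63 and 3.77 in the Celf1cKO libraries (log2 fold-change -2.01, limma adjusted p = 0.0434). Sparc, a matrix-binding glycoprotein, was at 10.73, 10.82 and 10.53 log2 CPM in the Control libraries and 10.11, 9.59 and 9.72 in the Celf1cKO libraries (log2 fold-change -0.89, limma adjusted p = 0.0162). Tdrd7, an RNA granule protein, was at 10.997, 11.17 and 10.985 log2 CPM in the Control libraries and 10.57, 10.27 and 10.28 in the Celf1cKO libraries (log2 fold-change -0.68, limma adjusted p = 0.0174). All 3 had groups that did not overlap, and all 3 calls were lost without Control library 1 or 2 or Celf1cKO library 3 (limma adjusted p from 0.0515 to 0.132) and under a term for Y-linked transcripts (0.103 to 0.205). That of Foxe3 was also lost without Control library 3 (0.114) and that of Tdrd7 without Celf1cKO library 2 (0.0605). The log2 fold-changes over the 6 omissions were -2.43 to -1.36 for Foxe3, -1.04 to -0.78 for Sparc and -0.77 to -0.62 for Tdrd7, and with the Y-linked term they were -1.97, -0.73 and -0.61. With total-count scaling and with quantile normalization Tdrd7 was at -0.45 and -0.53, under the fold-change threshold.

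A further list held genes for nuclease inhibition, for sensing uncleared DNA, such as those of the interferon response, and for enzymes of nucleic acids such as Samhd1. Apex1 is in this list and in that of the other nucleases. Of the 19 symbols listed, which give Sting1 and Cgas by an older name as well, 16 were in the table. Limma called 0 of them, as did limma voom, with 2 at an unadjusted p under 0.05 against 29.9% of all genes; 7 had a higher and 9 a lower mean in Celf1cKO lenses, and the median log2 fold-change was -0.05. The gene with an adjusted p under 0.05 was Rnaseh2c, a subunit of the nuclease that removes RNA from DNA, at 0.50 (limma adjusted p = 0.0314), under the fold-change threshold.

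**Figure D4:**
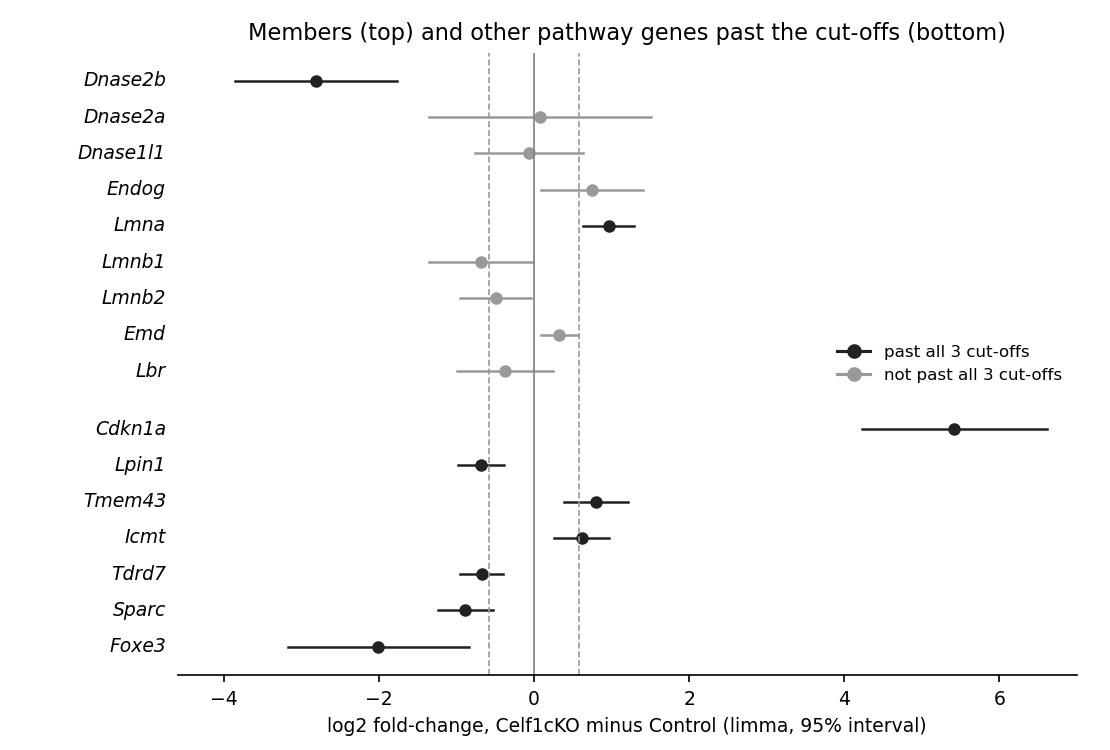
Points are log2 fold-changes of Celf1cKO minus Control from limma and lines are their 95% intervals (n = 3 per group), for the 9 members (top) and for the genes of the other pathway lists that were called (bottom), with calls in black and other genes in grey. Dashed lines mark 0.58 in either direction; among members the intervals of Dnase2b and Lmna alone lie wholly outside them.

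By the distance between profiles, the genes most like Dnase2b were Ank1, Dipk2a, Ermap, Zfyve28 and Kifc3, in this order, of 10639 other genes with an average above 1 log2 CPM. The distance is the root mean square difference of log2 CPM over the 6 libraries, each gene centred on its own mean, and it was 0.14 log2 units for Ank1, an ankyrin that links the membrane to the spectrin skeleton, and 0.27 for Kifc3, a kinesin motor. Ank1 was at 4.87, 5.09 and 4.89 log2 CPM in the Control libraries and 3.30, 1.40 and 1.80 in the Celf1cKO libraries, with the same library the highest and the same library the lowest in the Celf1cKO group as for Dnase2b. The genes most like Lmna were Arfgef3, Gga2, Rpn1, Npm1 and Hdac9, at distances of 0.04 to 0.07 log2 units. Npm1, a chaperone of the nucleolus, was at 7.68, 7.47 and 7.56 log2 CPM in the Control libraries and 8.43, 8.81 and 8.63 in the Celf1cKO libraries.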

How the data were processed

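After trimming, the authors aligned reads to GRCm38.p6 with STAR (version 2.7.8a per the labels), counted those mapped uniquely with featureCounts (2.0.0), normalized in edgeR and deposited log2 CPM per library, which include a small prior count. Their fold-changes, F statistics, p-values, FDR and group means were not used; their average log2 CPM served as the expression threshold. All 6 columns of single libraries were used. The steps between deposited values gave the reads behind them, of which 100% were whole within 0.05 of a read. The smallest level taken as detected was 3 reads, or 0.0609 to 0.0807 CPM, and p-values measure the spread between libraries.

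Differences were tested two-sided on the deposited log2 CPM with limma (version 3.58.1, R 4.3.3), the prior variance following expression, without a block, with Benjamini-Hochberg adjustment over all 13931 genes, and the script was tested on simulated data. Deviations of same-numbered libraries from their group means correlated at 0.26, 0.39 and 0.38 over all genes. Libraries of unlike numbers were not compared, so these values cannot show that the samples were paired, and the study describes no pairing. As alternatives, the model was given the replicate block, a prior variance without trend or robust empirical Bayes, and the values were replaced by log2(CPM + 1), 4 other scalings, limma voom on the recovered reads, expressed genes, calls by adjusted p alone, and sets with each library left out. Leaving out both libraries numbered 3, and a term for Y-linked transcripts, were added after seeing the data.

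The members and all gene lists were chosen with earlier results of these data known. The text names every member, Celf1, Cdkn1a, Cdkn1b, the called genes of each list, markers that moved with the groups, and for Dnase2b and Lmna the 5 nearest profiles. Dffa, Hsf4, Rnaseh2c, Eif2s3y and Xist were chosen with their values known. Positions are from GENCODE M21 (GRCm38), in which 13928 gene identifiers were found and 3 were not, and promoters are from RefSeq (GRCm38.p6). Lengths are those of the principal transcript. Python 3.11.15 and matplotlib 3.10.9 drew the figures.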

Additional observations from a re-analysis of the deposited data

How the results depend on the processing

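Dnase2b stayed lower and Lmna higher in Celf1cKO lenses under every alternative run, and both were called under all of them except the omissions of libraries and the term for Y-linked transcripts. The number of called members was 0 to 3 when 1 library was left out, with 0 without Control library 2 or Celf1cKO library 3, 1 without Control library 3 and 3 without Celf1cKO library 1. It was 0 without both libraries numbered 3 and 0 with the term for Y-linked transcripts, where over all genes 4 and 16 were called against 1030. Over all genes, 596, 1 and 438 were called without Control library 1, 2 or 3, and 1916, 436 and 1 without Celf1cKO library 1, 2 or 3. Leaving out 1 library gave 0 to 1 calls for other nucleases, 0 to 4 for the nuclear envelope, 0 to 5 for lamin kinases, 0 to 4 for denucleation regulators and 0 to 1 for DNA sensing. The highest of these came without Celf1cKO library 1. Without both libraries numbered 3, and with the term for Y-linked transcripts, the nuclear envelope, lamin kinase and regulator lists had 0 calls each.

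The replicate block called 1 other nuclease (Dffa, adjusted p = 0.0498) and changed no other call among the named members and pathway genes. Without the variance trend the nuclear envelope list had 0 calls, lamin kinases 1 and regulators 0. Celf1 itself lost its call in this setting (limma adjusted p = 0.0693), and 421 of all genes were called against 1030. Quantile normalization left 1 nuclear envelope gene, with Icmt at 0.55, and lost the call of Tdrd7 (-0.53). Total-count scaling called 2 other nucleases, 4 nuclear envelope genes and 1 DNA sensing gene, 3 elevated and 0 reduced lamin kinase genes (Lpin1 at -0.46) and 2 elevated and 2 reduced regulators against 0 and 3 (Tdrd7 at -0.45), with 89.07% of all calls elevated against 64.47%. By adjusted p alone the lists had 4 nuclear envelope, 4 lamin kinase, 6 regulator and 1 DNA sensing genes. Dnase2a turned to -0.0057 with log2(CPM + 1), to between -0.28 and -0.22 without Control library 1 or 2 or Celf1cKO library 1 (-0.24, -0.22 and -0.28) and to -1.16 with the Y-linked term, and was 0.72 without both libraries numbered 3. Dnase1l1 turned to 0.24 (quantile), 0.15 (total-count), 0.13, 0.02 and 0.02 (without Control library 3, Celf1cKO library 2 or 3) and 0.22 (without both libraries numbered 3). Cdkn1b turned to 0.021 with total-count scaling and 0.023 with the Y-linked term. The causes were not tested. By the length of all exons instead of the principal transcript, Lmna took 16.03% of lamin RNA in Control and 36.7% in Celf1cKO lenses, and Lmnb1 exceeded it in Celf1cKO library 3 (48.1% against 34.1%). With 13 to 77 reads per library, the depth limits what can be said of Dnase2a, Dnase1l1 and Endog.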

Other observations

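The Celf1cKO libraries differed among themselves in how much Celf1 remained. Celf1 was at 8.93 log2 CPM in Celf1cKO library 1 and at 7.66 and 7.83 log2 CPM in libraries 2 and 3, and Dnase2b was at 5.99, 4.09 and 4.39 log2 CPM in the same libraries. Lmna was lowest where Celf1 was highest, at 4.50 log2 CPM in library 1 and 4.90 and 4.62 log2 CPM in libraries 2 and 3, as was Cdkn1a. Emd also ran in the reverse order of Celf1, over a narrow range, at 4.10, 4.14 and 4.13 log2 CPM in Celf1cKO libraries 1, 2 and 3. Lmnb1, at 4.59, 3.44 and 4.14, and Lbr, at 3.46, 2.53 and 2.80 log2 CPM, ran in the order of Celf1. Dnase2a did so too, with 43, 17 and 28 reads. Dnase1l1 had 77, 60 and 61 reads, too close in libraries 2 and 3 to order them. The sum of the endothelial markers (114, 22.8 and 54.7 CPM) and the epithelial marker Cdh1 had the order of Celf1 as well. Endog, at -0.07, -0.13 and 0.03, and Lmnb2, at 3.03, 3.02 and 3.24 log2 CPM, followed neither order. With 3 libraries these are values side by side, and no relation between them was tested.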
